A study of Mus musculus with 8 samples.

Results

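The 49 genes described here are interferon-stimulated genes and genes of the p200 family, also written Ifi20x, that were taken by symbol from a list. All 49 were present among the 27594 genes of the count table, and all 49 were among the 14540 genes that had enough counts to be tested. 3 of them, Ifi203, Ifi204 and Ifi206, belong to the p200 family and are set apart from the other 46. RNA was measured by sequencing in regulatory T (Treg) cells, the CD4+ T cells that express Foxp3 and restrain immune responses, sorted from spleen and peripheral lymph nodes of C57BL/6 mice aged 6 to 8 weeks. Mice carried a YFP-Cre allele under Foxp3 control. The mice called WT carried it alone, and the Foxp1 cKO mice also carried Foxp1 fl/fl, so that Cre made in Foxp3-expressing cells deletes Foxp1, a forkhead transcription factor. In each genotype, CD4+YFP+ cells were sorted as resting Treg (rTreg) cells and activated Treg (aTreg) cells by surface markers that included CD44, low on the former and high on the latter. Each of the 4 groups had 2 libraries, numbered replicate 1 and 2.

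Interferons are secreted proteins that signal through paired receptors and JAK kinases to STAT transcription factors. Type I interferons drive a complex with STAT2 and IRF9 that binds the interferon-stimulated response element (ISRE), and interferon gamma acts through the gamma-activated sequence (GAS). The genes that follow encode nucleic acid sensors, inhibitors of viral replication, ISG15 and the enzymes around it, and GTPases that act on the membranes of intracellular pathogens. The p200 proteins carry HIN domains that bind DNA, and their genes lie side by side on chromosome 1.

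The deposited counts summed to between 6373170 and 15268623 per library, with a median of 12327710, and the lowest total was that of Foxp1 cKO rTreg replicate 1. Foxp1 itself stood at 353 and 384 CPM (counts scaled by TMM normalization to a common library size) in WT rTreg cells and 342 and 338 in Foxp1 cKO rTreg cells. In aTreg cells it stood at 234 and 230 CPM in WT and 126 and 102 CPM in Foxp1 cKO cells, a log2 fold change of -1.03 ± 0.10 (SE, adjusted p = 0.0019 in edgeR's quasi-likelihood test). In rTreg cells the log2 fold change was -0.12 ± 0.09 (adjusted p = 0.46 in the same test). The count covers the whole gene and not only its deleted part, and why the subsets differ was not tested. The rTreg values do not check the genotype, which in these libraries rests on the labels. The study reports complete loss of Foxp1 in Treg cells of such mice by immunoblot, mRNA measurement and staining. The Treg genes Foxp3, Il2ra, Cd4, Cd3e, Ikzf2 and Ctla4 were present in every library. All 4 replicate 2 libraries held between 15098 and 21822 counts of Xist, the RNA of the inactive X chromosome, and 0 counts of 4 Y-linked genes, and the replicate 1 libraries held at most 3 of Xist, so that replicate number and sex cannot be told apart.

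Short stretches before the start sites of members are shown because the ISRE pattern was more frequent among them than among all genes. The promoter windows of RefSeq (GRCm38.p6, 250 bases before to 50 after a start site) gave an entry for 36 of the 49 members. Ifi204, Dhx58, Zbp1, Oas2, Mx1, Rtp4, Usp18, Parp9, Parp14, Iigp1, Gbp4, Gbp6 and Gbp9 had none. The ISRE was searched as GAAA, any 2 bases and GAAA, and the GAS, which reads the same on both strands, as TTC, any 3 bases and GAA. Both strands were searched, and a match is a description of the letters, not a site. The ISRE pattern occurred in 21 of 36 members, or 58.3%, against 3.99% of the 27025 genes with a window. The GAS pattern occurred in 12 of 36 members, or 33.3%, against 9.55% of all genes. By role, 6 of 7 GTPases with a window held the ISRE pattern, as did 5 of 8 sensors, 5 of 12 antiviral effectors and both p200 genes. Capitals mark the ISRE pattern, merged where matches overlap, and on the opposite strand it reads TTTC. No printed stretch lies in an annotated exon.
Ifi203 (chr1:173942508-173942537, minus strand): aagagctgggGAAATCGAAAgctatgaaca
Ifi206 (chr1:173491339-173491368, minus strand): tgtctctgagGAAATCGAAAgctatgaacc
Oas1a (chr5:120907526-120907585, minus strand): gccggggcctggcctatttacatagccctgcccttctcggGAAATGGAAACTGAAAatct
Oas3 (chr5:120777715-120777744, minus strand): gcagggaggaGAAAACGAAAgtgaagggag
Bst2 (chr8:71537577-71537612, minus strand): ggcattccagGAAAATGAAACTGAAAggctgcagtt
Isg15 (chr4:156200865-156200906, minus strand): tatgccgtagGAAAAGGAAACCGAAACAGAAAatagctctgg
Ifit3 (chr19:34583363-34583426, plus strand): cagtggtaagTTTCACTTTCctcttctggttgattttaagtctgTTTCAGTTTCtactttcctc
Ifit3b (chr19:34607759-34607822, plus strand): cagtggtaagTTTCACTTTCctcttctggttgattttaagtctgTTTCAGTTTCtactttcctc
Igtp (chr11:58199496-58199555, plus strand): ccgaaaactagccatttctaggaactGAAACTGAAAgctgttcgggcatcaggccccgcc
Irgm2 (chr11:58214903-58214932, plus strand): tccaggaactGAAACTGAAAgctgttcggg
Gbp3 (chr3:142559984-142560024, plus strand): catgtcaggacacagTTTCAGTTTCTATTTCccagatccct

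The windows of Ifi203 and Ifi206 shared an unbroken stretch of 20 bases, from position -36 in Ifi203 and -41 in Ifi206, that contains the pattern. Ifi203 and Ifi206 are described next with Ifi204, which had no window. The Ifit3 and Ifit3b stretches are identical, and 51.2% of the 50-base words in Ifit3 transcripts also occur in Ifit3b, so reads of these genes are hard to assign. The same held for Oas1a, which shared 57.6% of its 50-base words with Oas1g, and for Gbp6, which shared 70.7% with other genes. Ifi204 shared 20.0% and Ifi206 25.6% with other genes, chiefly p200 genes. The gene that shared most with Ifi204 was Ifi211, at 14.8%.

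The question first asked was whether the absence of Foxp1 changed the level of these genes in rTreg cells. A gene was called where the adjusted p (Benjamini-Hochberg over all genes tested, edgeR) was under 0.05 and the change at least 1.5-fold. In Foxp1 cKO rTreg cells 5 members were called higher, Ifi204, Oas1a, Oas2, Ifi44 and Igtp, where 2.9% of all genes tested were called higher. Samhd1 and Gbp3 were called lower, 2 members, where 2.7% of all genes were. With the adjusted p alone, 9 members were higher, adding Zbp1, Bst2, Trim30a and Parp9, against 6.57% of all genes, and 3 were lower, adding Ifi203, against 5.45%. Of the 49 members 39 had a fold change above 0, with a median log2 fold change of 0.29 against 0.0029 over all genes.

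Without the replicate block, Ifi204 and Oas1a were the members still called, 2 in all.

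The member values differed between the replicate pairs. In the pair of replicate 1 libraries the median log2 difference between Foxp1 cKO and WT rTreg cells was 0.06, with 26 of 49 members above 0. In the pair of replicate 2 libraries it was 0.49, with 45 above 0. The difference was larger in the replicate 2 pair in 47 of 49 members, where 50.4% of all genes had the larger value there. The same held in aTreg cells, where the medians were 0.01 and 0.48 and the replicate 2 pair had the larger value in 45 members, against 51.7% of all genes.

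**Figure D1:**
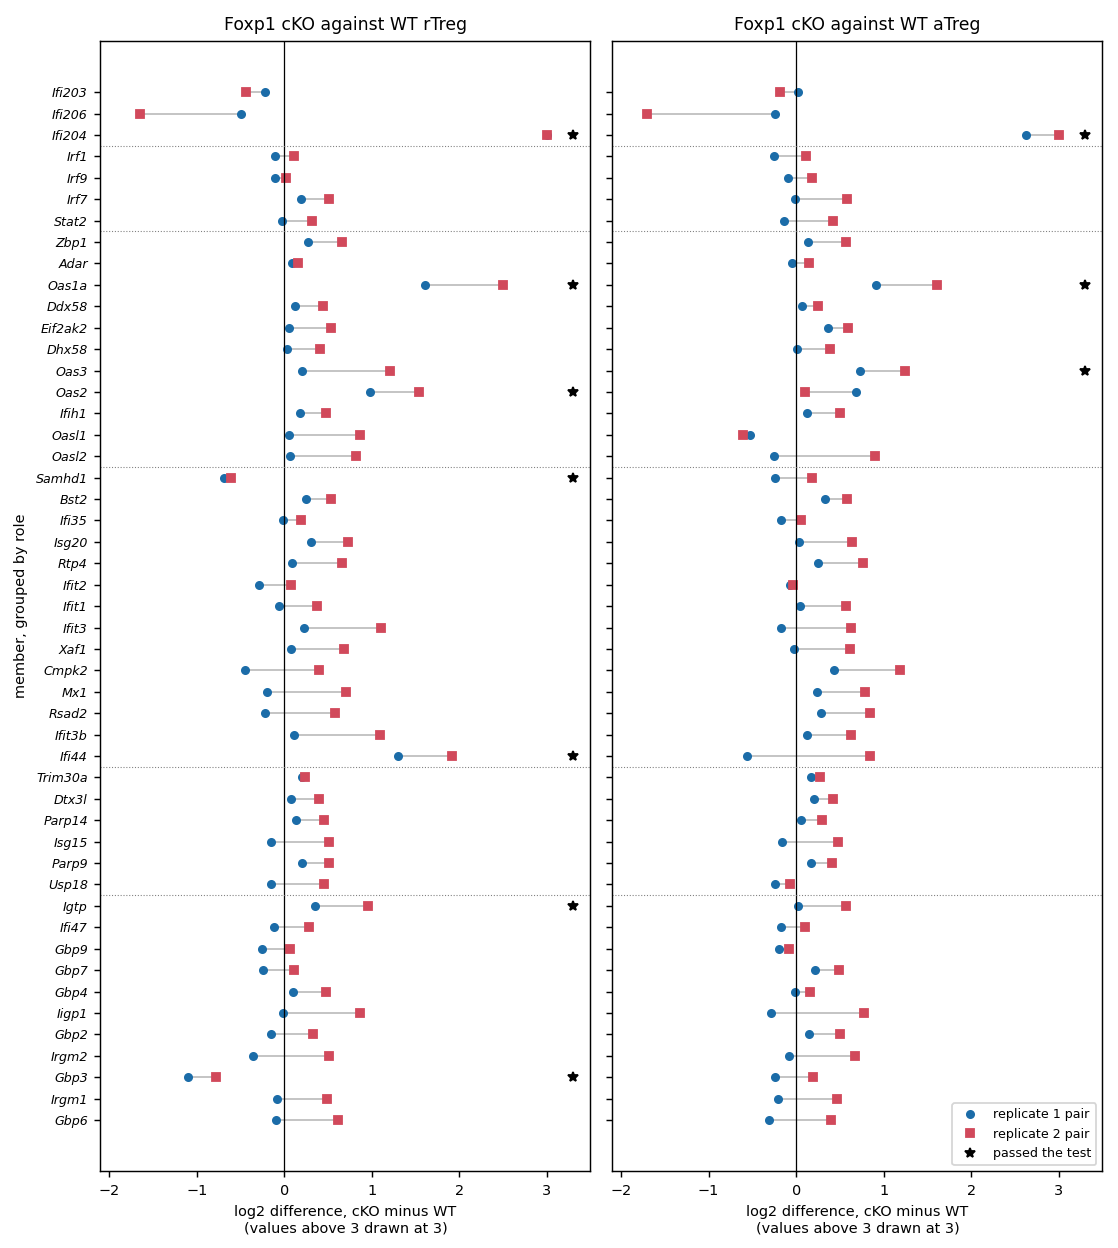
Difference between Foxp1 cKO and WT libraries in log2(CPM + 0.5) for each of the 49 members (rows, grouped by role), in rTreg cells on the left and aTreg cells on the right. Blue circles are the replicate 1 pair, red squares the replicate 2 pair and stars the members called by the test, with values above 3 drawn at 3; in rTreg cells the replicate 2 value is the larger in 47 of 49 members, including Ifi204, whose symbols both sit at 3.

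Among the p200 genes, Ifi204, a HIN-domain protein that can bind DNA, changed most. Its gene (ENSMUSG00000073489) lies at chr1:173747293-173766943 on the minus strand. It had 4 and 1 counts in WT rTreg cells and 51 and 554 counts in Foxp1 cKO rTreg cells. The groups did not overlap, and the Foxp1 cKO libraries differed widely from each other. The ratio of summed counts, scaled by effective library size, was 142 (95% exact interval 60.4 to 438, which covers counting error only). Its aTreg libraries had 5 and 2 counts in WT and 71 and 237 in Foxp1 cKO libraries, a ratio of 42.1 (20.2 to 106). Adjusted p was 0.0022 in rTreg and 0.0074 in aTreg cells in edgeR's test, and Foxp1 cKO was above WT in both replicate pairs of each subset. Ifi204 had enough counts to be tested only because of the Foxp1 cKO libraries. Its p-values and calls, under any setting, are therefore no separate support for the difference. In rTreg cells the call held in each of 15 alternative settings, whereas in aTreg cells it held in 12 of 15 and was lost without the replicate block (adjusted p = 0.122), without WT aTreg replicate 2 or without Foxp1 cKO aTreg replicate 2.

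Ifi206 (ENSMUSG00000037849, chr1:173468485-173491041) stood at 173 and 188 CPM in WT rTreg cells and at 123 and 59.7 CPM in Foxp1 cKO rTreg cells. The aTreg libraries stood at 79.8 and 94.6 CPM in WT and at 67.2 and 28.8 CPM in Foxp1 cKO libraries. All Foxp1 cKO libraries lay below the WT libraries of the same subset, most of all those of replicate 2. The log2 fold changes, -1.08 ± 0.34 in rTreg and -0.97 ± 0.35 in aTreg cells, did not pass the edgeR test (adjusted p = 0.081 and 0.147). Ifi203 (ENSMUSG00000039997, chr1:173920407-173942672) stood at 397 and 561 CPM in WT and 340 and 413 CPM in Foxp1 cKO rTreg cells, which overlap. Its log2 fold change of -0.34 ± 0.08 passed the adjusted p in edgeR (0.039) but not the fold, and in aTreg cells it was -0.08 ± 0.08 (adjusted p = 0.625). Ifi203 overlaps the p200 gene Mndal on the same strand over 22085 bases, and reads there could be assigned to either gene.

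The other p200 genes, a list fixed for the pathway, lie in the same stretch of chromosome 1, which runs from 173350879 to 174031810. Of 10 listed genes 7 were tested. In rTreg cells 1 was called higher and 1 lower, where 2.9% and 2.7% of all genes were, and in aTreg cells 1 was called higher, where 2.37% of all genes were. Ifi211 rose in both subsets, from 1 and 2 counts to 13 and 105 in rTreg cells, a ratio of 46.1 (15.4 to 227). Its aTreg counts went from 7 and 19 to 31 and 51. Since 14.8% of the 50-base words of Ifi204 also occur in Ifi211, some reads of these genes could be assigned to either. In aTreg cells the log2 fold change of Ifi211 was 1.70 ± 0.41 (adjusted p = 0.049 in edgeR). Like Ifi204, Ifi211 had enough counts to be tested only because of the Foxp1 cKO libraries. Its p-values and calls are therefore no separate support for the difference. Ifi209 fell in rTreg cells from 220 and 279 CPM to 181 and 138 CPM, by 0.65 on the log2 scale (adjusted p = 0.047 in edgeR). Ifi213 was not called. It stood at 231 and 269 CPM in WT and 179 and 48.2 CPM in Foxp1 cKO rTreg cells, and at 87.2 and 126 against 71.6 and 19.2 CPM in aTreg cells, so that in each subset its lowest library, like that of Ifi206, was Foxp1 cKO replicate 2. Along the chromosome, Ifi206, Ifi214, Ifi213, Ifi209 and Ifi208 lie at lower coordinates than Ifi204, while Ifi211 and Ifi203 lie at higher ones, and Ifi211 lies within the span of Mndal.

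**Figure D2:**
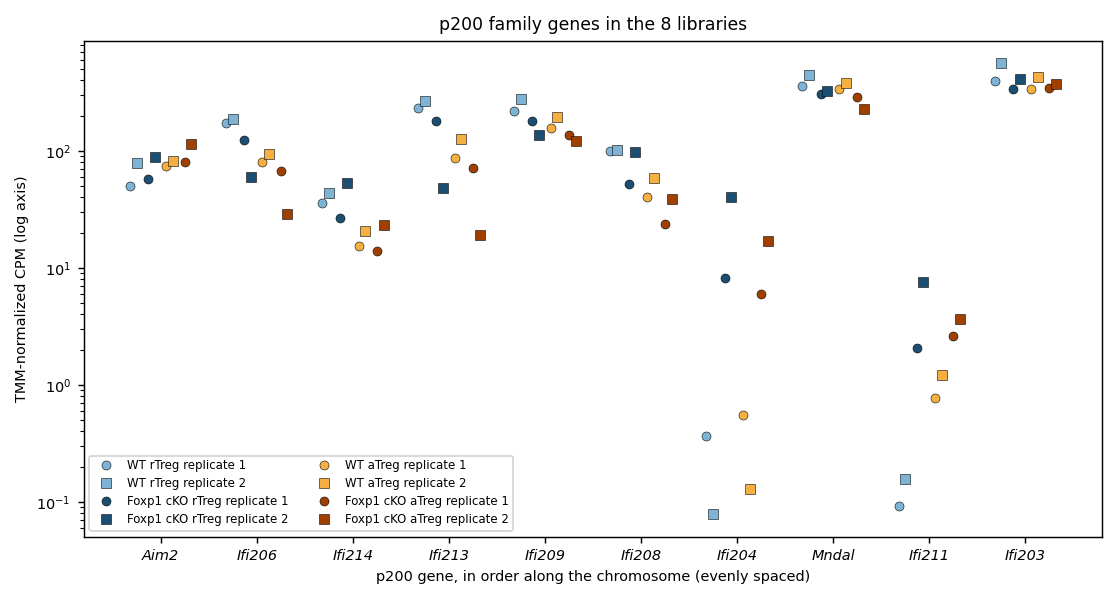
TMM-normalized CPM (log axis) of 10 p200 genes in the 8 libraries, in their order along the chromosome but evenly spaced. Colours are the 4 groups, circles replicate 1 and squares replicate 2; Ifi204 and Ifi211 are under 1 CPM in the WT rTreg libraries and above 2 CPM in the Foxp1 cKO libraries, while Ifi206 and Ifi213 are lowest in each subset in Foxp1 cKO replicate 2.

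Markers of myeloid cells summed to more in the Foxp1 cKO than the WT libraries of rTreg cells, while the sums overlapped in aTreg cells. The summed counts of 7 markers ran from 10 to 21 in WT rTreg cells and from 83 to 102 in Foxp1 cKO rTreg cells, and from 49 to 66 and from 62 to 339 in WT and Foxp1 cKO aTreg cells. As CPM the sums ran from 0.79 to 1.93, from 5.99 to 16.3, from 4.23 to 5.38 and from 4.46 to 28.4. In rTreg cells 3 of the 7, Mpo, S100a8 and S100a9, were called higher in Foxp1 cKO cells, where 2.9% of all genes were. All 5 that were tested had a fold change above 0 there, with a median log2 fold change of 4.32. In aTreg cells 1 was called higher, where 2.37% of all genes were. On the WT rTreg libraries alone, no myeloid marker had enough counts to be tested. The rTreg calls and directions are therefore no separate support for a difference. Cd14 and Csf1r had at most 8 counts in any library. In rTreg cells Ifi204 and the myeloid sum were both higher in each Foxp1 cKO library than in the WT libraries. The Ifi204 counts were highest in Foxp1 cKO rTreg replicate 2, where the myeloid sum was 5.99 CPM. The highest myeloid sum, 28.4 CPM, was in Foxp1 cKO aTreg replicate 1, where Ifi204 had 71 counts. Whether myeloid cells added to the Ifi204 counts was not tested. The 7 B cell markers summed to 178 to 228 CPM in WT and 257 to 264 CPM in Foxp1 cKO rTreg cells. In aTreg cells they summed to 628 to 651 CPM in WT and 729 to 817 CPM in Foxp1 cKO cells. Of the 4 B cell markers tested, 1 was called higher in Foxp1 cKO cells in each subset. The shares of all genes were 2.9% in rTreg and 2.37% in aTreg cells. Ms4a1 and Ebf1 had at most 4 counts in any library. The 6 dendritic cell markers summed to at most 1.91 CPM in any rTreg and between 5.13 and 10.4 CPM in the aTreg libraries. Of these, 2 were tested, and both were called higher in aTreg than rTreg cells of each genotype. The shares of all genes called higher were 9.5% in WT and 11.3% in Foxp1 cKO cells. In the rTreg libraries the 6 markers summed to 6 to 23 counts. The calls thus depend largely on the aTreg libraries and are no separate support for a difference. Siglech had at most 2 counts. The part of these cells in the results was not tested, and in bulk samples fewer cells of a type and less RNA per cell cannot be told apart.

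Of the transcription factors, none was called between genotypes. Irf7, the factor that amplifies type I interferon responses, stood at 116 and 103 CPM in WT and 133 and 148 CPM in Foxp1 cKO rTreg cells, a log2 fold change of 0.36 ± 0.13 (adjusted p = 0.129 in edgeR). The Irf7 groups did not overlap in rTreg cells but did in aTreg cells (91.0 and 77.3 against 90.4 and 115 CPM, log2 fold change 0.29 ± 0.14, adjusted p = 0.242). Stat2, Irf9 and Irf1, which carry the signal from the receptors or act as an immediate response gene, had log2 fold changes of 0.15 ± 0.13, -0.04 ± 0.08 and -0.00 ± 0.11 in rTreg cells. Levels of Irf1 ran from 224 to 339 CPM over the 8 libraries, of Irf9 from 173 to 217 and of Stat2 from 116 to 191.

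Of the nucleic acid sensors, all 11 had a fold change above 0 in rTreg cells (median log2 fold change 0.47), of which Oas1a and Oas2 were called. These are oligoadenylate synthetases, which on binding double-stranded RNA make the messenger that activates RNase L. Oas1a stood at 12.4 and 12.2 CPM in WT rTreg cells and 39.0 and 71.2 CPM in Foxp1 cKO rTreg cells, a log2 fold change of 2.14 ± 0.23 (adjusted p = 0.0021 in edgeR). Its aTreg libraries stood at 27.8 and 31.6 against 52.8 and 97.2 CPM, or 1.30 ± 0.20 (adjusted p = 0.0123). No Foxp1 cKO library overlapped the WT libraries of its subset, and the rTreg call held in each of 15 alternatives, while the aTreg call held in 12 and was lost without the replicate block (adjusted p = 0.172), without WT aTreg replicate 2 or without Foxp1 cKO aTreg replicate 2.

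Oas2 stood at 33.5 and 37.7 CPM in WT and 66.8 and 111 CPM in Foxp1 cKO rTreg cells, a log2 fold change of 1.28 ± 0.17 (adjusted p = 0.0041 in edgeR). Its aTreg libraries stood at 5.71 and 12.6 against 9.47 and 13.5 CPM, which overlap, with a log2 fold change of 0.32 ± 0.21 (adjusted p = 0.419). The Oas2 call in rTreg cells was lost without the replicate block or without Foxp1 cKO rTreg replicate 2. Oas3 was called in aTreg cells, at 50.7 and 47.0 against 84.7 and 112 CPM (1.01 ± 0.21, adjusted p = 0.0333), a call lost without the replicate block, with robust dispersion, without WT aTreg replicate 2 or without either Foxp1 cKO aTreg library. In rTreg cells its libraries stood at 65.3 and 53.0 against 75.2 and 123 CPM (0.74 ± 0.21, adjusted p = 0.064), and the difference between the subsets did not pass its own test (0.27 ± 0.30, adjusted p = 0.78). The sensor with the highest level per length, Zbp1, a detector of Z-form nucleic acid with a mean of 47.9 FPKM over the libraries, stood at 169 and 162 CPM in WT and 204 and 257 CPM in Foxp1 cKO rTreg cells (0.47 ± 0.12, adjusted p = 0.044), below the 1.5-fold limit. The RNA-editing enzyme Adar, next at 32.7 FPKM, had a log2 fold change of 0.13 ± 0.06 (adjusted p = 0.241). Ifih1, Ddx58 and Dhx58, the RIG-I-like receptors, had 0.35, 0.29 and 0.24, and the kinase Eif2ak2 had 0.31 in rTreg and 0.49 in aTreg cells, where it passed the adjusted p alone (0.0385).

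Of the 14 antiviral effectors, 11 had a fold change above 0 in rTreg cells, 1 was called higher and 1 lower. Samhd1, which hydrolyses deoxynucleotides, was the most abundant member at 106 FPKM and went the other way. It stood at 1160 and 1358 CPM in WT rTreg cells and 722 and 894 CPM in Foxp1 cKO rTreg cells, so the groups did not overlap, and the log2 fold change was -0.64 ± 0.09 (adjusted p = 0.0054 in edgeR). In aTreg cells it was 929 and 919 against 788 and 1041 CPM (-0.03 ± 0.09, adjusted p = 0.877). The call in rTreg cells was lost without the replicate block or without either Foxp1 cKO rTreg library.

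Ifi44, an interferon-induced protein of low level here (0.60 FPKM), had 25 and 27 counts in WT and 40 and 130 in Foxp1 cKO rTreg cells, or 2.30 and 2.12 against 6.38 and 9.39 CPM. The log2 fold change was 1.81 ± 0.40 (adjusted p = 0.0284 in edgeR) and the call was lost without the replicate block or without any of the 4 rTreg libraries. In aTreg cells it stood at 2.08 and 2.18 against 1.26 and 4.31 CPM. Bst2, which tethers virions to the membrane, stood at 63.7 and 62.8 against 75.5 and 91.0 CPM in rTreg cells and 49.2 and 49.0 against 61.9 and 73.3 CPM in aTreg cells. It passed the adjusted p in both subsets (0.0302 and 0.0266 in edgeR), with log2 fold changes of 0.40 ± 0.09 and 0.46 ± 0.09, and did not reach 1.5-fold. Mx1, Ifit1, Ifit2, Ifit3, Ifit3b, Isg20, Rsad2, Cmpk2, Rtp4, Ifi35 and Xaf1 were called in neither subset, with log2 fold changes from -0.10 (Ifit2) to 0.70 (Ifit3b) in rTreg cells.

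In the ISG15 group, all 6 had a fold change above 0 in rTreg cells (0.19 to 0.36) and none was called. Trim30a, a ubiquitin ligase of the TRIM family and the most abundant at 48.6 FPKM, stood at 181 and 204 against 209 and 242 CPM (log2 fold change 0.22 ± 0.06, adjusted p = 0.046 in edgeR). Isg15 itself, the ubiquitin-like modifier, stood at 21.3 and 19.6 against 19.1 and 28.2 CPM, which overlap (adjusted p = 0.506). Parp9, a partner of the ubiquitin ligase Dtx3l, reached 0.36 ± 0.09 (adjusted p = 0.046). Its gene overlaps Dtx3l on the opposite strand over 682 bases. Usp18, which removes ISG15, and Parp14 had 0.19 and 0.30.

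Of the 11 interferon-inducible GTPases, 8 had a fold change above 0 in rTreg cells (median log2 fold change 0.12). Igtp stood at 186 and 217 CPM in WT and 238 and 423 CPM in Foxp1 cKO rTreg cells (log2 fold change 0.66 ± 0.16, adjusted p = 0.0371 in edgeR), and had the second highest level per length of the members at 106 FPKM. The call was lost with robust dispersion, without the replicate block, without WT rTreg replicate 2 or without either Foxp1 cKO rTreg library. In aTreg cells Igtp stood at 128 and 165 against 130 and 245 CPM, which overlap (adjusted p = 0.29). Gbp3, a guanylate-binding protein, stood at 59.2 and 85.9 CPM in WT and 27.4 and 49.6 CPM in Foxp1 cKO rTreg cells (-0.90 ± 0.18, adjusted p = 0.0212). It stood at 96.7 and 91.9 against 81.9 and 105 CPM in aTreg cells, and its call in rTreg cells was lost with robust dispersion, without the replicate block or without any of the 4 rTreg libraries. Ifi47, at 62.5 FPKM, had a log2 fold change of 0.10 ± 0.11 in rTreg and -0.03 ± 0.11 in aTreg cells. The other GTPases, Irgm1, Irgm2, Iigp1, Gbp2, Gbp4, Gbp6, Gbp7 and Gbp9, were not called between genotypes. Igtp and Irgm2 overlap on the same strand over 7974 bases, and Gbp4 and Gbp9 over 23773 bases.

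In aTreg cells, 3 members were called higher in Foxp1 cKO cells, Ifi204, Oas1a and Oas3, where 2.37% of all genes were, and 0 were called lower, where 1.66% of all genes were. With the adjusted p alone in edgeR 5 members were higher, adding Bst2 and Eif2ak2, against 4.11% of all genes, and 0 lower, against 2.77%. At an unadjusted p under 0.05 the edgeR count of lower members was 2, where 1506 of all 14540 genes were lower. The count of members called lower was 0 by limma-voom and by DESeq2. Of the members 38 had a fold change above 0, with a median log2 fold change of 0.29 against 0.0018 over all genes, which fell to 0.03 without WT aTreg replicate 2 and 0.08 without Foxp1 cKO aTreg replicate 2. By role, 10 of 11 sensors (median 0.32), 11 of 14 effectors (median 0.36) and 8 of 11 GTPases (median 0.14) had a fold change above 0. Ifi204 and Oas1a were the members called in both subsets, and without the replicate block 0 members were called higher in aTreg cells. The genotype comparisons in rTreg and aTreg cells share no library but were fitted together. Same-numbered rTreg and aTreg libraries correlated in their deviations from the group means, at 0.63 in WT and 0.59 in Foxp1 cKO cells. A call in both subsets is therefore not an independent repeat.

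The genotype differences in the subsets were then compared with an interaction term. No member was called in edgeR, 0 higher and 0 lower, where 0.186% and 0.144% of all genes were called in the respective directions. At an unadjusted p under 0.05 there were 8 members by edgeR, 4 in each direction, and 8 by DESeq2, which called 1 of them, Samhd1, and 7 by limma-voom. Oas1a, Oas2, Oasl1 and Ifi44 had the lower and Cmpk2, Samhd1, Gbp3 and Gbp7 the higher value in aTreg cells. The lowest adjusted p in edgeR was 0.094, for Samhd1, whose genotype difference was higher in aTreg than rTreg cells by 0.61 ± 0.13 on the log2 scale. Oasl1, an inactive relative of the oligoadenylate synthetases, stood at 16.9 and 10.9 CPM in WT and 17.5 and 20.4 CPM in Foxp1 cKO rTreg cells, and at 4.83 and 4.30 against 3.19 and 2.66 CPM in aTreg cells. Its interaction was -1.14 ± 0.33 (adjusted p = 0.195).

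The next comparison was between aTreg and rTreg cells of the same genotype. A call needed an adjusted p under 0.05 and at least 2-fold. In WT cells 5 members were called lower in aTreg than rTreg cells, Ifi206, Oas2, Oasl1, Oasl2 and Usp18, where 2.83% of all genes were, and 1 was called higher, Oas1a, where 9.5% of all genes were. In Foxp1 cKO cells 5 were called lower, Oas2, Oasl1, Oasl2, Ifi44 and Usp18, where 4.39% of all genes were, and 2 were called higher, Mx1 and Gbp3, where 11.3% of all genes were. Of the members 37 in WT and 40 in Foxp1 cKO cells had a fold change below 0, with a median log2 fold change of -0.23 in both genotypes against -0.0046 and -0.018 over all genes. With the adjusted p alone 16 members were lower and 4 higher in WT cells, against 13.6% and 18.2% of all genes, and 17 were lower and 5 higher in Foxp1 cKO cells, against 18.2% and 21.9%. Each subset comparison shares its libraries with the genotype comparisons. In WT cells the median was -0.11 without WT rTreg replicate 1 or WT aTreg replicate 2 and -0.37 without WT aTreg replicate 1. In Foxp1 cKO cells it was -0.075 without Foxp1 cKO rTreg replicate 2 and -0.39 without Foxp1 cKO aTreg replicate 2.

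**Figure D3:**
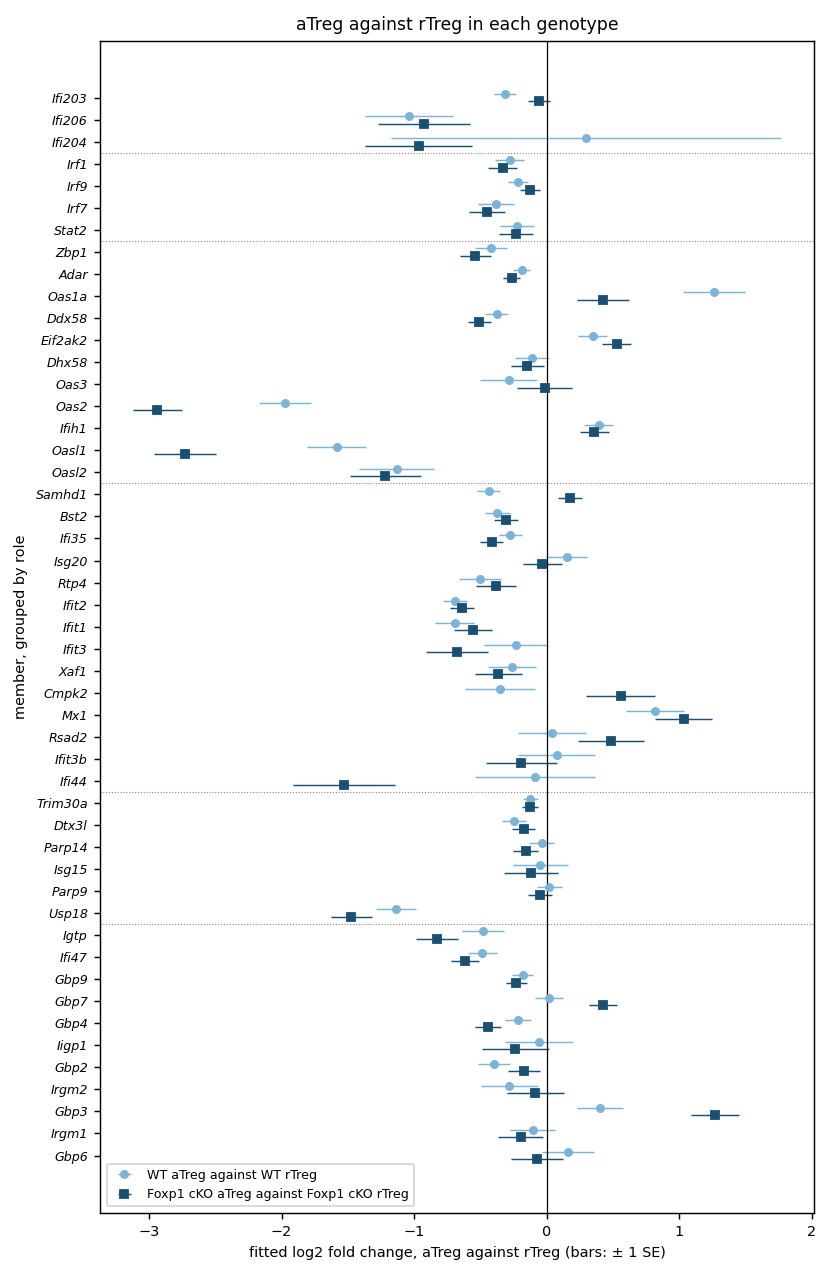
Fitted log2 fold change of aTreg against rTreg cells in WT (light circles) and Foxp1 cKO cells (dark squares) for the 49 members, with bars of ± 1 SE. Most points lie left of 0, and Oas2 and Oasl1 lie furthest to the left in both genotypes.

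The largest falls among the members were those of Oas2 and Oasl1. Oas2 stood at 33.5 and 37.7 CPM in WT rTreg cells and 5.71 and 12.6 CPM in WT aTreg cells (log2 fold change -1.97 ± 0.19, adjusted p = 2.6e-04 in edgeR), and its Foxp1 cKO libraries went from 66.8 and 111 to 9.47 and 13.5 CPM (-2.94 ± 0.18, adjusted p = 2.2e-05). Oasl1 had -1.59 ± 0.22 (adjusted p = 0.0014) in WT and -2.73 ± 0.23 (adjusted p = 9.2e-05) in Foxp1 cKO cells. No aTreg library reached any rTreg library for these 2 genes. Oasl2 stood at 22.7 and 18.7 CPM in WT rTreg and 11.3 and 8.01 CPM in WT aTreg cells (-1.13 ± 0.28, adjusted p = 0.0189), and at 23.7 and 33.5 against 9.39 and 15.5 CPM in Foxp1 cKO cells (-1.22 ± 0.27, adjusted p = 0.0089). Usp18 stood at 51.0 and 51.1 CPM in WT rTreg and 23.6 and 23.1 CPM in WT aTreg cells (-1.14 ± 0.15, adjusted p = 0.0011), and at 46.1 and 70.1 against 20.0 and 22.1 CPM in Foxp1 cKO cells (-1.47 ± 0.15, adjusted p = 2.2e-04). The Oas2 and Oasl1 calls held in each of 15 alternatives in both genotypes. The Usp18 call in WT cells was lost without WT aTreg replicate 2, and so was that of Oasl2, which was also lost without WT rTreg replicate 1. In Foxp1 cKO cells the Oasl2 call was lost without Foxp1 cKO rTreg replicate 2 or Foxp1 cKO aTreg replicate 1.

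Other members were called higher in aTreg cells, or called in 1 genotype without a difference between genotypes that passed its own test (interaction adjusted p from 0.191 to 0.962 in edgeR for the 5 genes that follow). Oas1a was higher in WT aTreg than WT rTreg cells by 1.26 ± 0.23 (log2, adjusted p = 0.0049 in edgeR), and by 0.43 ± 0.19 (adjusted p = 0.12) in Foxp1 cKO cells. The Oas1a call was lost without the replicate block or without WT rTreg replicate 2. Gbp3 was higher by 1.27 ± 0.18 (adjusted p = 0.0011) in Foxp1 cKO and by 0.40 ± 0.17 (adjusted p = 0.113) in WT cells. Mx1, a gene of the dynamin-like GTPase family, stood at 11.8 and 15.7 CPM in Foxp1 cKO rTreg cells. In Foxp1 cKO aTreg cells it stood at 27.5 and 30.3 CPM (1.03 ± 0.21, adjusted p = 0.0064 in edgeR). The WT values were 13.5 and 9.43 against 23.2 and 17.4 CPM (0.82 ± 0.22, adjusted p = 0.0248, under 2-fold). Ifi44 fell in Foxp1 cKO cells (-1.53 ± 0.38, adjusted p = 0.0152) and stood at -0.09 ± 0.45 in WT cells. The Mx1 call was lost without Foxp1 cKO rTreg replicate 1 or Foxp1 cKO aTreg replicate 2, and the Ifi44 call without the replicate block, without either Foxp1 cKO rTreg library or without Foxp1 cKO aTreg replicate 1. Ifi206 fell in WT cells (-1.04 ± 0.33, adjusted p = 0.048) and had a log2 fold change of -0.92 ± 0.35 in Foxp1 cKO cells (adjusted p = 0.0694), where the libraries overlap. The WT call was lost with DESeq2, with robust dispersion, without the replicate block, and without WT rTreg replicate 2, WT aTreg replicate 1 or either Foxp1 cKO rTreg library. The transcription factors Irf1, Irf7, Irf9 and Stat2 had log2 fold changes from -0.45 to -0.13 over both genotypes, and none reached 2-fold.

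Replicate number was a further axis of these genes. Between replicate 2 and replicate 1, 5 members were called higher, Ifi204, Irgm1, Irgm2, Iigp1 and Gbp2, where 1.41% of all genes were, and 0 lower, where 4.72% of all genes were. Of these, 4 are GTPases. With the adjusted p alone 17 members were higher, against 9.79% of all genes, and 0 lower, against 8.71%. All 11 GTPases had a value above 0, with a median of 0.55 on the log2 scale, and 8 of them passed the adjusted p alone. At an unadjusted p under 0.05, 0 members were lower by edgeR, where 2476 of all 14540 genes were lower. Of the members, limma-voom and DESeq2 called 0 lower.

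The same libraries can be read by group, and whether replicate differences differed between genotypes was not tested. Over the GTPases the median of replicate 2 minus replicate 1 was 0.38 in WT rTreg, 0.83 in Foxp1 cKO rTreg, 0.23 in WT aTreg and 0.72 in Foxp1 cKO aTreg cells. Over the 35 members that are neither p200 genes nor GTPases it was -0.08, 0.31, -0.05 and 0.24. Irgm2, which acts in the clearance of vacuolar pathogens, stood at 83.0 and 118 CPM in WT rTreg replicates 1 and 2 and at 64.9 and 168 CPM in the Foxp1 cKO rTreg libraries. Its aTreg libraries stood at 69.7 and 95.7 CPM in WT and 66.1 and 153 CPM in Foxp1 cKO cells. Leaving out a Foxp1 cKO library left 1 member called, and leaving out a WT library left 8 or 9. The member left was Irgm2. The summed CPM of all members was 7919 in Foxp1 cKO rTreg replicate 2 and 5844 in replicate 1, and 6955 and 6263 in the WT rTreg libraries.

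**Figure D4:**
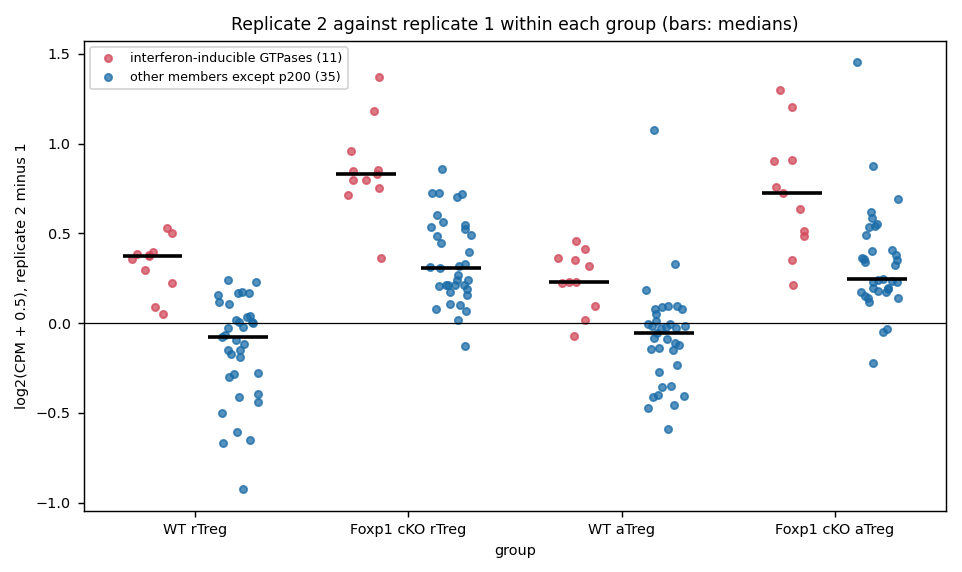
Difference between replicate 2 and replicate 1 within each of the 4 groups, in log2(CPM + 0.5), one point per member, with the 11 GTPases in red and 35 other members in blue and black bars at the medians. GTPases lie above 0 in all groups except for 1 in WT aTreg cells, and the medians of both kinds are higher in the Foxp1 cKO groups.

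**Figure D5:**
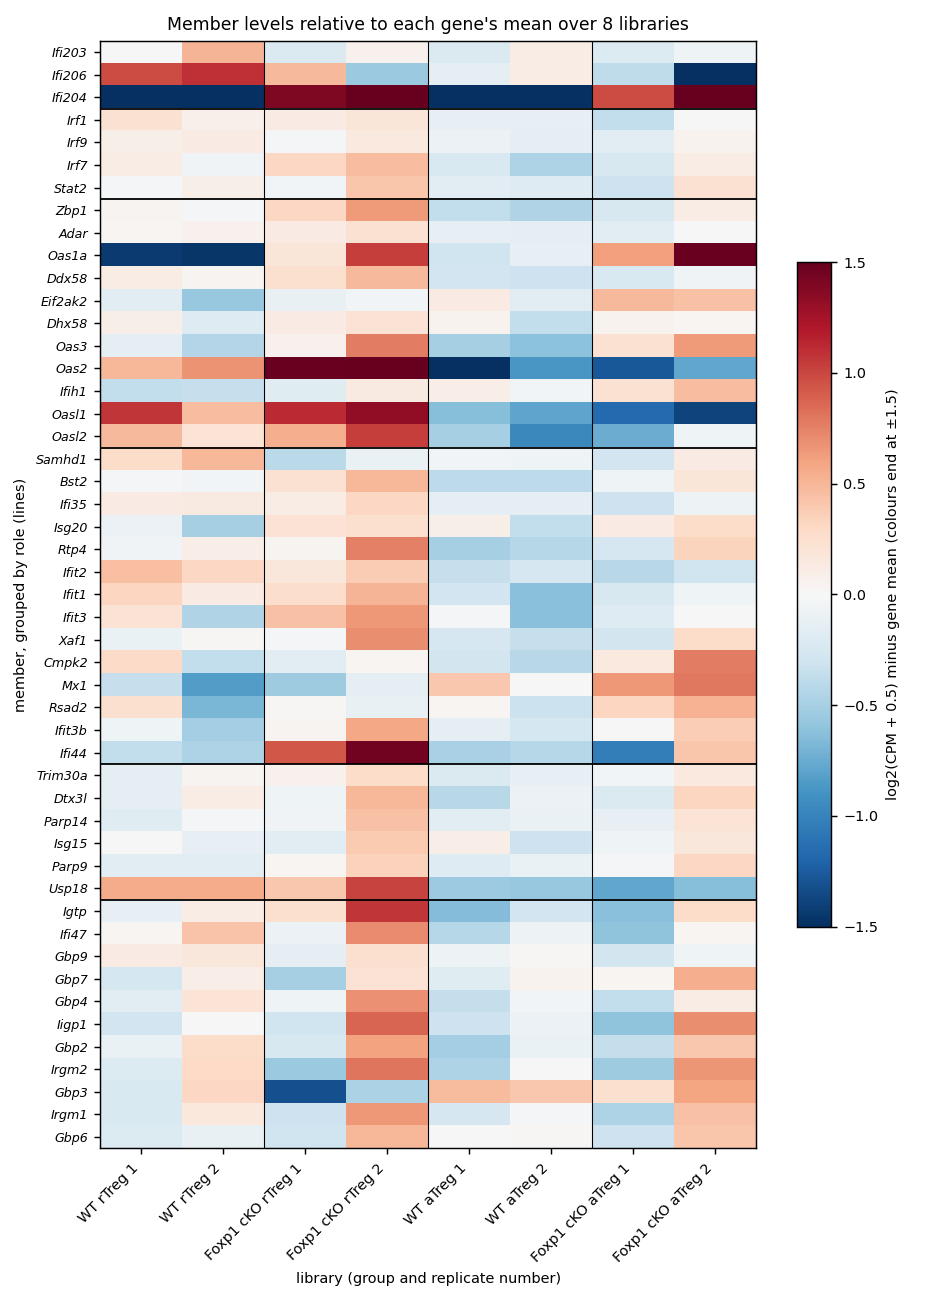
Level of each member in each library as log2(CPM + 0.5) minus the gene's mean over the 8 libraries, with red for higher and blue for lower and colours ending at ±1.5. Rows are grouped by role, and Foxp1 cKO replicate 2 is higher than Foxp1 cKO replicate 1 in 47 of 49 members in rTreg and 45 of 49 in aTreg cells.

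Genes of the interferon pathway outside the members were counted in the same way. Of the 81 pathway genes tested, 6 were called higher and 3 lower in rTreg cells, where 2.9% and 2.7% of all genes were. In aTreg cells 5 were called higher and 1 lower, where 2.37% and 1.66% of all genes were. The interferon ligand Ifng had 3 and 5 counts in WT rTreg, 0 and 1 in Foxp1 cKO rTreg, 202 and 134 in WT aTreg and 161 and 101 in Foxp1 cKO aTreg cells. It was called higher in aTreg cells of both genotypes, with a ratio of 40.1 (20.1 to 93.6) in WT cells. Ifng had enough counts to be tested only because of the aTreg libraries, so its calls are no separate support for the difference. No member of its receptor list was called between genotypes. Ifngr2, a chain of its receptor, fell from 91.9 and 86.7 to 31.8 and 41.3 CPM between WT rTreg and WT aTreg cells (-1.27 ± 0.13, adjusted p = 2.8e-04 in edgeR).

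Of the 50 other interferon targets tested, 4 were called higher and 1 lower in Foxp1 cKO cells in each subset, against the same shares of all genes, 2.9% and 2.7% in rTreg and 2.37% and 1.66% in aTreg cells. Gbp11 rose in Foxp1 cKO cells, from 5.99 and 5.03 to 37.5 and 42.0 CPM in rTreg cells (2.86 ± 0.15, adjusted p = 8.6e-05 in edgeR) and from 1.32 and 1.22 to 4.69 and 4.82 CPM in aTreg cells (1.91 ± 0.22, adjusted p = 0.0039). Gbp2b fell, from 59 and 110 counts to 1 and 2 in rTreg cells, a ratio of 48.1 (16.2 to 235) in favour of WT, and from 232 and 376 to 16 and 18 in aTreg cells, a ratio of 18.7 (13.2 to 27.3). Ly6a rose from 61.1 and 77.6 to 150 and 186 CPM in rTreg cells and from 51.6 and 60.9 to 155 and 209 CPM in aTreg cells. Lgals3bp rose in both subsets (0.63 ± 0.13 and 0.79 ± 0.13). The log2 differences of Ly6a in the replicate 1 and replicate 2 pairs were 1.29 and 1.26 in rTreg and 1.58 and 1.77 in aTreg cells. Of the other interferon regulatory factors, Irf8 rose (0.97 ± 0.12, adjusted p = 0.0031) and Irf5 fell (-1.22 ± 0.25, adjusted p = 0.0217) in Foxp1 cKO rTreg cells, and the upstream sensor Tlr7 was lower in aTreg cells of both genotypes.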

How the data were processed

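RNA sequencing counts were used for 8 libraries from 4 groups. The authors deposited whole-number counts per Ensembl gene, and FPKM values that equal count over total over length. Per the study's methods, reads were trimmed, freed of duplicates with Picard and counted with HTSeq, and the submitters' processing notes name HISAT2 2.0.5 and mm10. The library kit does not mark strand, and the strand setting of the counting is not given in the sources used here. Removing duplicates can lower the counts of abundant short genes.

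Genes passing filterByExpr (minimum count 10) were tested in edgeR 4.0.16 under R 4.3.3 with TMM scaling and the quasi-likelihood F test, in a single fit of all libraries with 1 coefficient for each group and the replicate as a blocking factor. The block follows the study, which treated same-numbered samples as pairs. Deviations of same-numbered libraries from their group means correlated in all 6 pairs of groups (0.39 to 0.63). Because replicate number goes with sex, these correlations cannot tell a pairing of samples from a shared sex. The labels do not say which libraries came from separate mice, so p-values measure the spread left between these samples after the replicate block. Calls needed an adjusted p under 0.05 with 1.5-fold (genotype, replicate) or 2-fold (subset), and the interaction no fold. Alternatives were no block, limma-voom (limma 3.58.1), DESeq2 1.42.0, RLE size factors, other filters, robust dispersion, the adjusted p alone and leaving out libraries. The fit was tested on simulated data. SE is the fold change over the root of the F statistic. Intervals of count ratios are exact at 95% and cover counting error only. Coordinates are from GENCODE M21 (GRCm38), and promoter windows from RefSeq GRCm38.p6. The members, lists and naming rule were chosen with earlier results of these data known. By that rule, values per library were given for p200 genes, called members, 4 transcription factors, leading members of each role by FPKM and called pathway genes, up to 4 per list.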

Additional observations from a re-analysis of the deposited data

Results flagged for a closer look

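5 members changed in opposite directions in all pairs of libraries of 2 groups. Each difference was also tested as an interaction term in edgeR, none passing the adjusted p. The pattern was looked for in the members only. Without the share of all genes that show it, the count of 5 is not a result about the members. Some differences were small, as in Gbp6, at -0.008 and -0.083 between Foxp1 cKO subsets. Oasl1 was higher in Foxp1 cKO cells in both rTreg pairs and lower in both aTreg pairs, with an interaction of -1.14 on the log2 scale (adjusted p = 0.195). In the other 4 the change from rTreg to aTreg cells went opposite ways in the genotypes. Samhd1 had an interaction of 0.61 (adjusted p = 0.094), which DESeq2 called, Cmpk2 had 0.91 (adjusted p = 0.355), and Gbp6 had -0.23 (adjusted p = 0.796). For Ifi204 the value was -1.27 (adjusted p = 0.81) and rests on 5 and 7 counts in the WT groups.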

How the results depend on the processing

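Without the replicate block, the members called higher in Foxp1 cKO rTreg cells went from 5 to 2 (Ifi204 and Oas1a) and those called lower from 2 to 0, those called higher in Foxp1 cKO aTreg cells from 3 to 0, and Oas1a between WT subsets was lost, leaving 0 called higher; counts lower in aTreg cells stayed within 1.5 times. When 1 library or 1 replicate number was left out, the rTreg calls ranged from 2 to 5 higher and 0 to 3 lower, and the aTreg calls from 0 to 4 higher. The WT subset calls ranged from 0 to 2 higher and 3 to 5 lower, the Foxp1 cKO subset calls from 1 to 2 higher and 3 to 6 lower, the interaction from 0 to 2 higher, and the replicate calls from 1 to 9. With 1 replicate number left out no test was run. There, members called in the full fit were counted where the remaining pair kept the fold, so no member could be gained. The median log2 fold change of members was an alternative added after seeing the data, like the next count. Between genotypes it ranged from 0.06 to 0.49 in rTreg and 0.01 to 0.48 in aTreg cells. It ranged from -0.37 to -0.11 between WT subsets and from -0.39 to -0.075 between Foxp1 cKO subsets. The number of members above 0 ranged from 26 to 45, 25 to 43, 5 to 20 and 9 to 20 in these comparisons.

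With no low-count filter, 5 members were called higher (adding Rsad2 and Cmpk2) and 1 lower (Ifi206) in Foxp1 cKO aTreg cells, and the interaction had 4 higher and 2 lower. DESeq2 called 1 member (Samhd1) by interaction. Robust dispersion lost Igtp and Gbp3 in rTreg cells (4 higher and 1 lower left), Oas3 in aTreg cells (2 higher left) and Ifi206 between WT subsets (4 lower left), and left 2 called between replicates. The adjusted p alone gave 9 higher in rTreg, 5 higher in aTreg, 4 higher and 16 lower between WT subsets, 5 higher and 17 lower between Foxp1 cKO subsets, and 17 between replicates. The WT subset median was -0.24 with limma-voom and -0.22 without the filter. No called member changed direction under any of these settings. Leaving out WT aTreg replicate 1 gave the 2 interaction calls, Samhd1 and Gbp3. The cause of these shifts was not tested, and 2 libraries a group limit every comparison.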
